A study of Mus musculus with 2 samples.

Results

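The genes described here are 35 genes of neuropeptide signalling, namely 24 neuropeptide precursors, 5 granins, 2 small proteins that bind the prohormone convertases, and 4 processing enzymes. They were chosen by symbol as a functional set, out of 55536 annotated gene entries, of which 22028 are protein coding, and all 35 were found in the deposited tables. Total RNA of the left cerebral cortex, depleted of ribosomal RNA and spiked with ERCC standards, was sequenced from 2 adult male mice of the F1 hybrid strain B6CASTF1/J, aged 8 to 10 months, with 300 ng of RNA per library. Animals 2 and 4 of the labels are biological replicates 1 and 2 of a single group, with no treatment named, so no condition was compared and no p-value is given. The donor label is the same for both libraries, and that they come from separate animals is taken from the animal numbers. Replicates 1 and 2 held 26925514 and 30143684 expected counts over all entries, and 24688669 and 27440152 over the genes used for scaling.

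A neuropeptide is made as a larger precursor protein that is sorted into dense-core vesicles, cut at pairs of basic residues by prohormone convertases, trimmed by a carboxypeptidase and in many cases amidated at its end before release. Granins are acidic proteins that share these vesicles, help to form them and are themselves cut into peptides. In the cerebral cortex somatostatin, neuropeptide Y, vasoactive intestinal peptide and cholecystokinin mark classes of inhibitory interneurons, while peptides such as vasopressin, oxytocin and orexin are made mainly in the hypothalamus.

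Levels are given as TPM, a transcript abundance per length, and ± marks the SD over the 2 animals (n = 2). Of the 35 members, 29 reached 1 TPM in both animals. The same level was reached by 27.1% of all gene entries and by 59.0% of protein-coding ones. The 6 members below it were 5 of the 6 hypothalamic precursors and the galanin precursor Gal. In whole tissue, more cells of a type and more RNA per cell cannot be told apart.

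**Figure D1:**
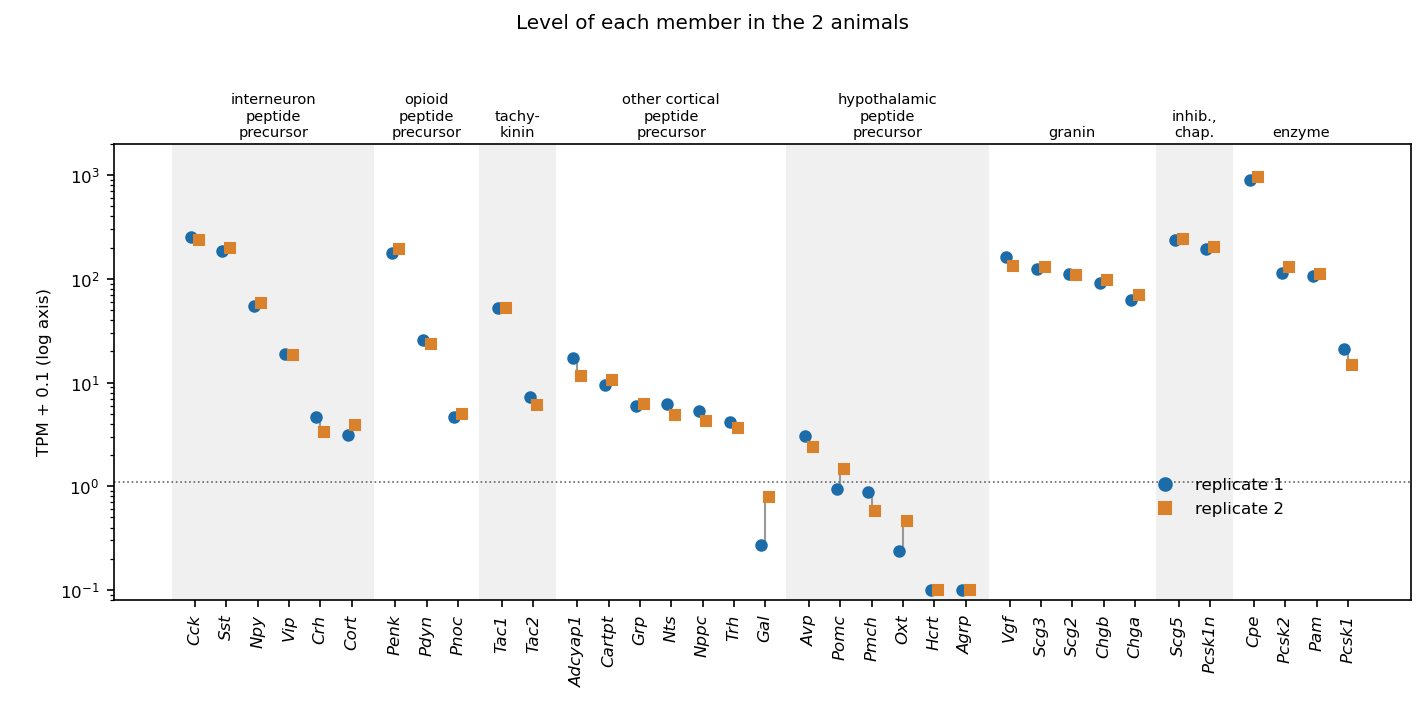
TPM + 0.1 on a log axis for each of the 35 members in replicate 1 (circles) and replicate 2 (squares), grouped by role, with a dotted line at 1 TPM. Cpe is the highest, at 908 and 952 TPM, and Hcrt and Agrp, listed at 0 in both, lie at the bottom of the axis.

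The precursors came to 835.74 and 847.60 TPM in sum in replicates 1 and 2. Of this sum, Cck, Sst and Penk together held 73.9% ± 0.801. The summed precursor RNA level of these 24 genes was thus held mostly by 3 of them, and 18 of the 24 reached 1 TPM in both animals.

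Among the 6 precursors of interneuron peptides, Cck, which encodes cholecystokinin and is also transcribed in excitatory neurons, was the highest (chromosome 9, 121489824 to 121495694, mm10). Cck reached 251 TPM in replicate 1 and 236 in replicate 2. Sst, the somatostatin precursor (chromosome 16, 23889573 to 23890958), stood at 185 and 199 TPM. Npy, which encodes neuropeptide Y, followed at 54.4 and 58.4 TPM. The ratio of Sst to Npy TPM was nearly the same in both animals, at 3.41 and 3.40. Vip, the precursor of vasoactive intestinal peptide and marker of a separate interneuron class, was lower, at 18.9 and 18.2 TPM. Crh, which encodes corticotropin-releasing hormone, was listed at 4.57 and 3.25 TPM from 98 and 76 counts. The lowest of the 6 was Cort at 3.05 and 3.80 TPM, from 31 and 42 counts.

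Cort encodes cortistatin, a peptide close to somatostatin. The ends of the coding sequences of Sst and Cort are shown because they are the stretch that encodes the peptide ring, and because reads from such copies could be shared. Both run 5′ to 3′ on the minus strand of mm10, from the GENCODE M21 transcripts. Capitals mark the bases that are the same in both.
Sst, chromosome 16, 23889732 to 23889770: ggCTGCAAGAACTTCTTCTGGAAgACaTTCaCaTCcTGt
Cort, chromosome 4, 149125270 to 149125308: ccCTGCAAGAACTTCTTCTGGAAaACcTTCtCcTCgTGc
Of the 39 bases, 31 were identical, and of the 13 codons 7 were identical. The Sst stretch ends at its last coding codon, while Cort has 1 further codon before its stop. The longest shared run covers bases 3 to 23 of the stretch. Both genes had whole-number expected counts, so no read was listed as split between them. Sst stood 60.8 and 52.3 times above Cort in TPM in replicates 1 and 2.

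The opioid precursors were led by Penk, which encodes the enkephalins (chromosome 4, 4133531 to 4138819). Penk stood at 176 and 196 TPM, close to Sst. Pdyn, the dynorphin precursor, was listed at 25.9 and 23.7 TPM, and Penk exceeded it 6.80 and 8.26 times. Pnoc, the precursor of nociceptin, stood at 4.54 and 4.85 TPM. The tachykinin precursor Tac1, which encodes substance P, stood at 52.0 and 52.9 TPM, while Tac2, which encodes neurokinin B, stood at 7.08 and 5.98 TPM.

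Penk, Tac1 and Pdyn are also transcribed at high levels in striatal projection neurons, and genes that mark those neurons were present in both libraries. All 11 striatal markers examined reached 1 TPM in both animals, with a summed level of 650.86 TPM in replicate 1 and 685.20 TPM in replicate 2. The highest were Ppp1r1b at 273 ± 20.0 TPM and Pde10a at 111 ± 2.12 TPM, and the lowest was Isl1 at 1.51 and 1.49 TPM. Some of these genes are transcribed in the cortex too. The part of striatal cells in the levels of Penk, Tac1 and Pdyn was not tested. The label of the tissue was matched by all 5 excitatory cortical markers, with Slc17a7 at 455 ± 20.2 TPM, Tbr1 at 49.3 ± 1.53 TPM, and Emx1 the lowest at 12.4 ± 3.35 TPM. All 10 inhibitory neuron markers also reached 1 TPM in both animals, from Gad1 at 245 ± 24.3 TPM, Gad2 at 70.9 ± 3.29 TPM and Slc32a1 at 61.5 ± 5.42 TPM down to Dlx2 at 2.59 ± 1.39 TPM.

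The other 7 cortical precursors were all below 18 TPM in both animals. Adcyap1, which encodes the peptide PACAP, was listed at 17.3 and 11.5 TPM, the highest of them by the first quantification. Cartpt, the CART precursor, stood at 9.30 and 10.5 TPM, and Grp, which encodes gastrin-releasing peptide, at 5.89 and 6.05 TPM. By the first quantification, animals did not overlap between Adcyap1 and Cartpt, or between Cartpt and Tac2, the next member in the order of levels. By the scaled second one, Adcyap1 stood at 10.6 and 6.68 TPM and Cartpt at 9.56 and 12.0 TPM, so their animals overlapped and the order of their means turned. The precursors of neurotensin (Nts, 5.46 ± 0.962 TPM), C-type natriuretic peptide (Nppc, 4.71 ± 0.771 TPM) and thyrotropin-releasing hormone (Trh, 3.81 ± 0.375 TPM) lay close together. From Tac2 down to Cort in that order, every pair of neighbours overlapped between the animals, so the 8 genes were not separated step by step. Gal was listed at 0.17 and 0.68 TPM from 2 and 9 counts.

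All 6 hypothalamic precursors were low, each with fewer than 25 expected counts per animal. Avp, the vasopressin precursor, was listed at 2.97 and 2.30 TPM from 24.96 and 21 expected counts. Oxt, the oxytocin precursor, was listed at 0.14 and 0.36 TPM from 1.04 and 3 expected counts. Avp and Oxt were the only 2 of the 35 members with a count that was not whole within 0.005. The second quantification listed Avp at 3.38 and 1.83 TPM and Oxt at 0.309 and 2.22 TPM, so how reads were divided between these 2 related neighbours on chromosome 2 is uncertain. Pomc, the precursor of melanocortins and β-endorphin, stood at 0.84 and 1.37 TPM, and Pmch, which encodes melanin-concentrating hormone, at 0.79 and 0.48 TPM.

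Hcrt, the orexin precursor, and Agrp, which encodes agouti-related peptide, had 0 counts in both animals by both quantifications. A count of 0 allows up to 3 counts, or 0.122 and 0.109 CPM of the gene counts in replicates 1 and 2, and this limit covers counting error only. None of 9 hypothalamic marker genes reached 1 TPM in both animals, and they summed to 0.97 and 1.28 TPM. The highest of these were Nkx2-1 at 0.550 ± 0.226 TPM, Fezf1 at 0.185 ± 0.0212 TPM and Sim1 at 0.170 ± 0.0849 TPM, and Hmx2 and Hmx3 were at 0 in both. None of 6 pituitary markers reached 1 TPM either, with sums of 0.28 and 0.09 TPM. In that list Lhb was the highest at 0.145 ± 0.0778 TPM, before Gh at 0.035 ± 0.0495 TPM and Tshb at 0.005 ± 0.00707 TPM, and Prl, Pou1f1 and Cga were at 0 in both animals.

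A further 33 peptide precursors that are not members were examined beside them. Of these, 7 reached 1 TPM in both animals and 9 were listed at 0 in both, Npvf among them. The highest were Apln, the apelin precursor, at 7.96 ± 0.0919 TPM, the endothelin precursor Edn3 at 2.25 ± 0.509 TPM and Nmb, which encodes neuromedin B, at 1.87 ± 0.453 TPM. Their summed TPM was 21.36 and 20.56 in replicates 1 and 2, against 835.74 and 847.60 for the 24 member precursors.

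The 5 granins were all above 60 TPM in both animals and summed to 549 ± 11.8 TPM. Vgf, which encodes a granin-like protein induced by neurotrophins, stood at 164 and 134 TPM. Scg3, a granin that binds vesicle membranes, stood at 126 and 131 TPM, and Scg2, the precursor of secretoneurin, at 112 and 109 TPM. These levels covered a narrow range compared with the precursors. Chgb, which encodes chromogranin B, was listed at 92.0 and 98.0 TPM, and Chga, which encodes chromogranin A, was the lowest at 63.1 and 69.3 TPM. Chgb exceeded Chga 1.46 and 1.41 times.

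Both convertase partners were abundant. Scg5, whose product 7B2 is a chaperone of the convertase PC2, stood at 238 and 244 TPM, and its neighbour in the order of levels was Cck, whose animals overlapped with it. Pcsk1n, whose product proSAAS inhibits the convertase PC1/3, stood at 192 and 202 TPM.

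Of the 4 processing enzymes, Cpe was the highest member of all (chromosome 8, 64592542 to 64693054). Cpe encodes carboxypeptidase E, which removes the basic residues left by the convertases. It stood at 908 and 952 TPM, rank 25 by mean TPM among protein-coding genes. Pcsk2, which encodes the convertase PC2 (chromosome 2, 143546156 to 143816285), stood at 114 and 130 TPM. Pam, the enzyme that amidates peptide ends (chromosome 1, 97795114 to 98095646), stood at 107 and 111 TPM. Pcsk1, which encodes PC1/3 (chromosome 13, 75089826 to 75134861), was the lowest of the 4, with 21.2 TPM in replicate 1 and 14.7 in replicate 2.

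The balance between the enzymes was steadier for some pairs than for others. Cpe exceeded Pam 8.50 and 8.60 times. Pcsk2 exceeded Pcsk1 5.36 times in replicate 1 and 8.86 times in replicate 2, and 4.46 and 9.08 times by the second quantification. The inhibitor Pcsk1n exceeded its target Pcsk1 9.07 and 13.7 times in replicates 1 and 2. Each of these ratios compares RNA levels only.

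Other genes of the pathway were present as well. All 16 genes of dense-core vesicle formation and release that were examined reached 1 TPM in both animals. The highest were Rab3a, a small GTPase of secretory vesicles, at 363 ± 24.9 TPM, the vesicle membrane proteins Ptprn at 192 ± 5.08 TPM and Ptprn2 at 150 ± 9.46 TPM, and the lowest was the calcium sensor Syt10 at 9.24 ± 0.573 TPM. Of 19 other proteases that act on peptides or their precursors, 18 reached that level, led by Ctsl, which encodes cathepsin L, at 62.1 ± 4.07 TPM, Lnpep at 53.2 ± 0.990 TPM and Ece1 at 33.7 ± 8.07 TPM. The lowest was Cpz at 0.085 ± 0.0495 TPM. Furin, the convertase of the general secretory pathway, stood at 15.1 ± 1.36 TPM, near Pcsk1.

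In the order of mean TPM over the 35 members, the animals of neighbouring members did not overlap for 17 of 34 neighbours. Cpe stood clear of Cck, and Penk of Vgf, whereas Cck and Scg5 overlapped, as did Pcsk1n, Sst and Penk from one to the next. The order of the highest 4, namely Cpe, Cck, Scg5 and Pcsk1n, had Sst in place of Pcsk1n by the second quantification.

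The differences between the animals were measured as the log2 ratio of replicate 1 over replicate 2, on expected counts scaled by TMM, with a prior count of 2. Of the members, 27 had the required mean of 50 normalised counts, and Cort, Gal and the 6 hypothalamic precursors did not. None of the 27 differed by 2-fold or more, and no test stands behind this count, since each side holds 1 library. Over all genes, 122 of 14169 did, which is 0.861%. The median log2 ratio was 0.0027 over the members and 0.00077 over all genes. The median size of the log2 ratio was 0.098 over the members and 0.108 over all genes. These sizes include counting error, which depends on the counts, and the members were not matched to other genes by counts.

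A finer description used the exact 95% binomial interval of each ratio, which covers counting error only and not the spread between animals. The interval lay above equal levels, with replicate 1 higher, for 7 of the 27 members (25.9%), against 18.0% of all genes tested. It lay below equal levels, with replicate 2 higher, for 3 of the 27 (11.1%), against 15.4% of all genes tested. These shares are near the background and say nothing particular about the members. The other 17 had an interval that included equal levels. With libraries scaled by the spike-ins in place of TMM, the median of all genes moved to 0.072, and the interval lay above equal levels for 12 members, with Pdyn, Scg5, Pcsk1n, Cpe and Pam added to the 7 (32.6% of all genes), and below for 1, Pcsk2 (7.16% of all genes).

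**Figure D2:**
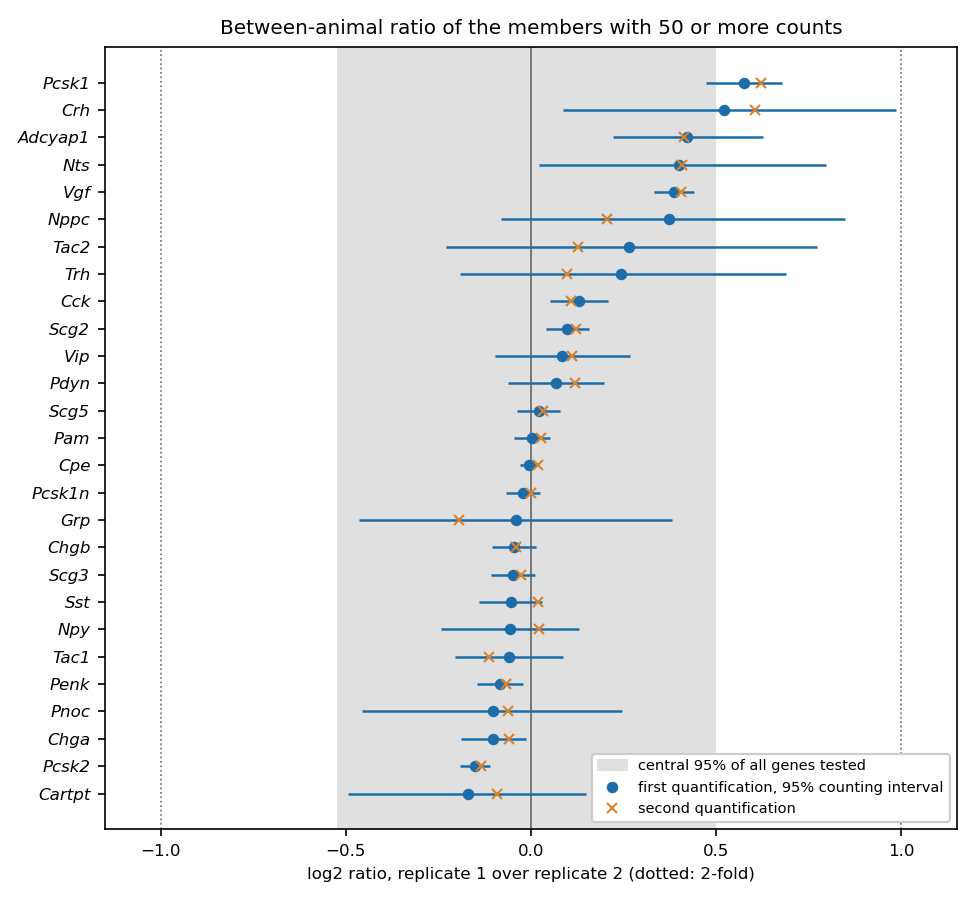
Log2 ratio of replicate 1 over replicate 2 for the 27 members tested, with the 95% counting interval of the first quantification (circles and lines) and the ratio by the second (crosses). The grey band holds the central 95% of all genes tested, −0.52 to 0.50, and only Pcsk1 and Crh lie outside it by the first quantification.

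The convertase Pcsk1 had the largest ratio. Its 1782 and 1343 counts gave a log2 ratio of 0.57, or 1.49-fold (interval 1.39 to 1.60). Of all genes tested, 3.79% had a ratio at least as large in either direction. Pcsk2, the other convertase, lay on the opposite side, with 9184 and 11449 counts and a log2 ratio of −0.15 (0.876-fold to 0.926-fold). The enzymes Cpe and Pam lay at log2 ratios of −0.0064 and 0.0027, and both intervals included equal levels, but lay above them with spike-in scaling (1.03-fold to 1.06-fold for Cpe, 1.02-fold to 1.09-fold for Pam).

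Among the granins, Vgf was higher in replicate 1, with 5855 and 5033 counts and a log2 ratio of 0.39 (1.26-fold to 1.36-fold). Scg2 followed at 0.098 (1.03-fold to 1.11-fold). Chga was on the other side at −0.10 (0.876-fold to 0.990-fold), and the interval of Chga included equal levels by the second quantification and with spike-in scaling. Scg3 and Chgb, at −0.048 and −0.046, had intervals that included equal levels.

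Of the precursors, 4 were higher in replicate 1 by this rule, and all 4 were so by the second quantification as well. Crh had the largest ratio, at a log2 value of 0.52, but from few counts (interval 1.06-fold to 1.98-fold). Adcyap1, with 444 and 372 counts, had a log2 ratio of 0.42 (1.17-fold to 1.54-fold), and Nts one of 0.40 (1.01-fold to 1.74-fold). Cck differed by less, at 0.13 (1.04-fold to 1.16-fold). Penk was the only precursor lower in replicate 1, at −0.084 (0.904-fold to 0.985-fold), and with spike-in scaling its interval included equal levels at a log2 ratio of −0.013. For Sst, Npy, Vip, Pdyn and Tac1 the interval included equal levels by the first quantification, with log2 ratios from −0.058 to 0.085. It also did for the less abundant Nppc at 0.37, Tac2 at 0.26, Trh at 0.24, Grp at −0.040, Pnoc at −0.10 and Cartpt at −0.17, whose intervals were wide.

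Other gene lists examined between these libraries are given beside the members. All 13 activity-regulated genes examined, whose transcription follows neuronal firing, were higher in replicate 1, 8 of them by 2-fold or more, with a median log2 ratio of 1.18. Their summed level was 515.29 TPM in replicate 1 and 193.74 TPM in replicate 2. Arc stood at 163 and 27.8 TPM, Nr4a1 at 76.1 and 23.4 TPM, Junb at 51.4 and 22.8 TPM, Fos at 24.8 and 8.27 TPM, Dusp1 at 22.1 and 11.1 TPM, Egr2 at 8.43 and 3.62 TPM, Npas4 at 7.39 and 3.37 TPM and, lowest, Ier2 at 6.75 and 2.72 TPM. Egr1, the second highest by mean, stood at 100.3 and 59.5 TPM. Of the 27 members tested, 14 had a ratio above 0, as did 50.2% of all genes. The 7 members with an interval above equal levels were Vgf, Pcsk1, Scg2, Crh, Adcyap1, Nts and Cck, all by less than 2-fold. For 3 members, Penk, Pcsk2 and Chga, the interval lay on the other side. Whether the ratios of members go with those of the activity-regulated genes was not tested.

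Markers of the choroid plexus, the epithelium that makes cerebrospinal fluid, summed to 751.83 TPM in replicate 1 and 7.66 TPM in replicate 2. All 10 were higher in replicate 1, and 7 of the 7 with enough counts differed by 2-fold or more by the first quantification. By the second, Tmem72 had a log2 ratio of 0.080 in place of 3.63. Ttr, the most abundant, had 711 and 2.40 TPM, Kl had 9.39 and 1.60 TPM, Sostdc1 at 9.26 and 0.28 TPM, Clic6 at 5.11 and 1.80 TPM, Tmem72 at 2.62 and 0.13 TPM, Aqp1 at 2.43 and 0.27 TPM and Slc4a5 at 2.17 and 0.20 TPM, while Kcne2 was at 0 in replicate 2. Their part in the members' ratios was not tested. 5 markers of thalamic neurons had a median log2 ratio of 0.25 over the 4 tested, with summed levels of 33.99 and 28.83 TPM. Of these Slc17a6 stood at 13.2 ± 1.42 TPM, Ramp3 at 8.20 ± 0.962 TPM, Plekhg1 at 5.19 ± 1.22 TPM and Lhx9 at 0.470 ± 0.0424 TPM.

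Of the 33 other peptide precursors, 3 had enough counts for a ratio, with a median log2 ratio of −0.48. Edn1, an endothelin precursor, lay at −0.72 and Edn3 at −0.48, both with an interval below equal levels, and Apln lay at 0.021. The median log2 ratio was −0.033 over the 16 vesicle genes, 0.067 over the 18 other proteases tested, 0.015 over the striatal markers, −0.061 over the inhibitory neuron markers and −0.044 over the excitatory ones. Over the 6 astrocyte markers it was 0.022, with Slc1a2 at 804 ± 22.4 TPM, Aldoc at 347 ± 18.9 TPM and Slc1a3 at 144 ± 14.0 TPM as the highest and Aqp4 at 39.3 ± 1.63 TPM as the lowest.

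**Figure D3:**
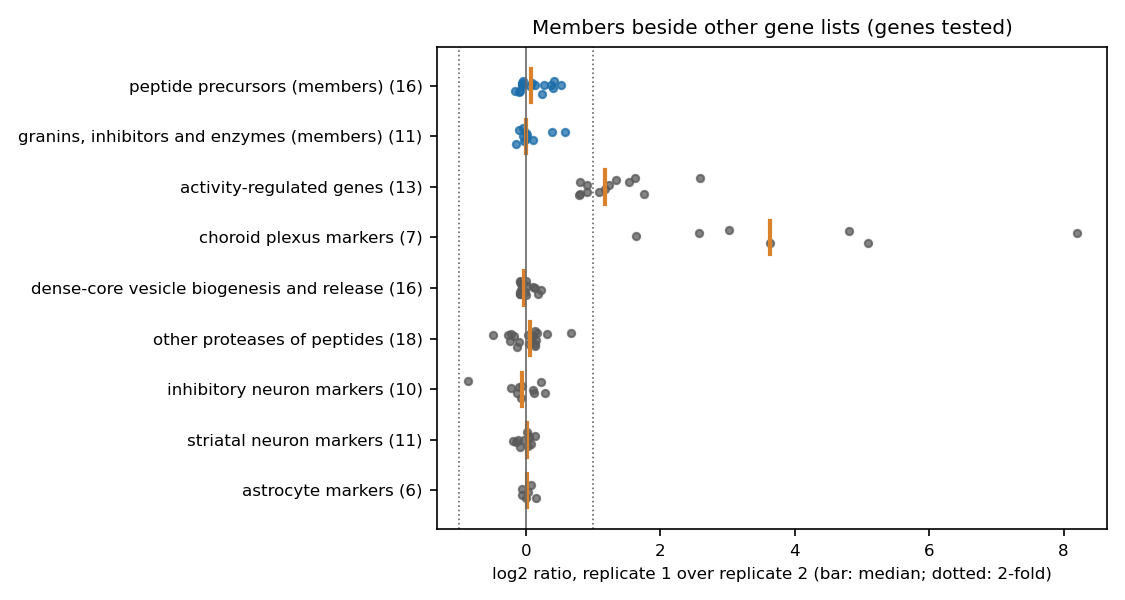
Log2 ratio of replicate 1 over replicate 2 for each gene tested, one row per list, with the number of genes in brackets, the members in blue and the median of each row as an orange bar. No member passes the dotted 2-fold lines, whereas 8 of 13 activity-regulated genes and 7 of 7 choroid plexus markers do by the first quantification, of which Tmem72 does not by the second.

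The cyclic AMP response element is a promoter motif bound by the factor CREB, and somatostatin is one of the genes it is known from. The full palindrome TGACGTCA, which reads the same on both strands, was searched in RefSeq promoter windows (GRCm38.p6) from 250 bases before to 50 bases after each annotated start. Of the 28 members with a window, 5 held the motif (17.9%), namely Cartpt, Chgb, Pcsk1, Scg2 and Sst. Crh, Penk, Pnoc, Grp, Agrp, Vgf and Cpe had no window and were not searched. Over all genes with a window, 549 of 27025 held it (2.03%). That base was not limited to protein-coding genes or by level, and the members were not matched to it. Among genes with enough counts for a ratio between the animals, 373 held the motif and 9885 did not, against 5 and 16 of the members. The 5 sites are shown with their flanks because they belong to genes of several roles, namely the precursors Sst and Cartpt, the granins Scg2 and Chgb, and the convertase Pcsk1. Capitals mark the motif, each sequence runs 5′ to 3′ on the gene's strand, and each line gives the span on GRCm38.p6.
Sst, chr16:23890874-23890903, minus strand: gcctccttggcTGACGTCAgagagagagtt
Cartpt, chr13:99900777-99900806, minus strand: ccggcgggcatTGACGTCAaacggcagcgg
Scg2, chr1:79440076-79440105, minus strand: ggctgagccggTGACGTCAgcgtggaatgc
Chgb, chr2:132781559-132781588, plus strand: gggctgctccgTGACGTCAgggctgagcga
Pcsk1, chr13:75089768-75089797, plus strand: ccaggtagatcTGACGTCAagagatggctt
The motif began 48 bases before the RefSeq start for Sst, 68 for Scg2, 72 for Chgb, 78 for Pcsk1 and 112 for Cartpt. GENCODE M21, the annotation of the deposited tables, starts some transcripts farther upstream. In it the motif lay in an annotated 5′ untranslated exon of Sst-201, Scg2-201, Chgb-201 and Cartpt-202, and outside every transcript of Pcsk1.

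The 5 members found with the motif did not stand on one side of the comparison of animals. Members without a window, Vgf and Crh among them, are not part of this comparison. Pcsk1 had a log2 ratio of 0.57 and Scg2 one of 0.098, while Chgb lay at −0.046, Sst at −0.055 and Cartpt at −0.17. The median log2 ratio was −0.046 over these 5 and 0.044 over the 16 tested members with a window and no motif. Over all genes tested it was 0.013 for 373 genes with the motif and 0.0034 for 9885 without. A match is a run of letters in the window and was not tested as a binding site.

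Of the 33 members with reads, 12 have a single annotated transcript and 21 have several. By the first quantification the leading transcript was the same in both animals for 33 of 33, and it held 90% or more of the gene's TPM for 24. For the 12 with a single transcript both results were fixed by the annotation. The second quantification, averaged over the animals, had the same leading transcript as the first for 27 of 33, and for 15 of the 21 with several. Within the second quantification, the leading transcript differed between the animals for Cck, Tac1 and Scg2. By the first quantification, members with several transcripts and 1 dominant form included Vip, Cpe, Pcsk1 and Pcsk2. Sst and Npy have only 1 annotated transcript. Cpe-201 held 95.6%, Pcsk1-201 95.4% and Pcsk2-201 97.1% of their genes by the first quantification (mean of both animals). By the second, Cpe-201 held 81.9% and 80.6% in replicates 1 and 2. Cpe-202, not annotated as coding, held 17.9% and 19.3%. Pcsk1-201 held 80.3% in replicate 1, where Pcsk1-203 held 17.5%, and a larger share in replicate 2. In the mean of both animals by the second, Pcsk1-201 held 88.9% and Pcsk2-201 96.6%.

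**Figure D4:**
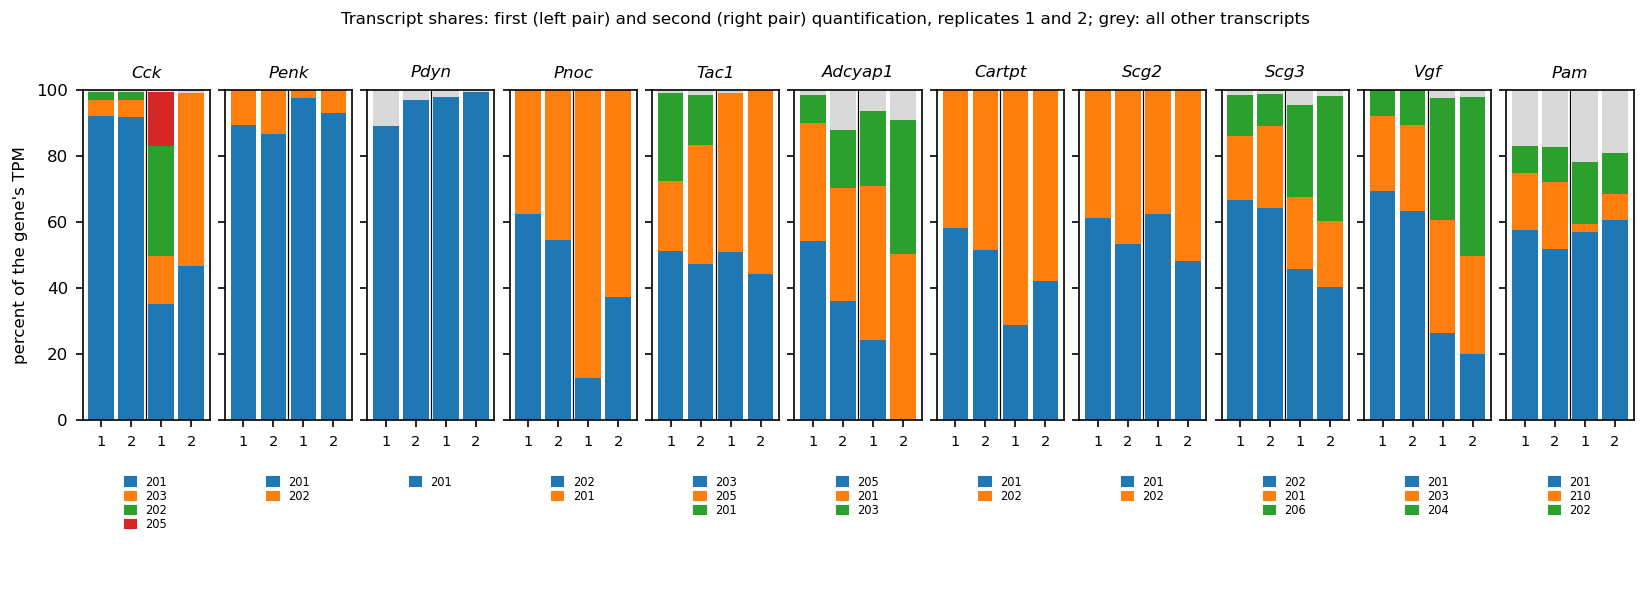
Share of each transcript in its gene's TPM, in percent. Shown are the 11 members with more than 1 transcript at 5% or more by the first quantification. Replicates 1 and 2 of the first quantification are left of the line and those of the second right of it. Transcripts under 10% in every bar are in grey. The pairs of animals are alike within the first quantification for Scg3 and Vgf. Among the genes for which the quantifications differ are Cck, Pnoc, Tac1, Adcyap1, Cartpt, Scg3, Vgf and Pam.

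By the first quantification, 11 members had more than 1 transcript at 5% or more. They were Cck, Penk, Pdyn, Pnoc, Tac1, Adcyap1, Cartpt, Scg2, Scg3, Vgf and Pam. Vgf-201, of 2553 bases, led by the first quantification at 69.3% and 63.4% in replicates 1 and 2, but Vgf-204 led by the second at 36.9% and 48.4%. Pnoc-202 led by the first at 62.5% and 54.5%, and Pnoc-201 by the second at 87.2% and 62.9%. For Cartpt, Cartpt-201 held 58.3% and 51.5% by the first, and Cartpt-202 held 71.4% and 57.8% by the second. The form of these 3 genes is therefore not settled by the deposited values.

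Tac1 was split among 3 forms, with Tac1-203 in the lead at 51.2% and 47.3% by the first quantification. By the second, Tac1-203 held 51.0% and 44.3% and Tac1-205 48.1% and 55.6%, so Tac1-205 led only in replicate 2. For Pomc, with 13 and 23 counts, the first listed Pomc-202 alone and the second Pomc-201 alone. The leading forms of the remaining genes were Cck-201 at 91.9%, Penk-201 at 88.0%, Pdyn-201 at 93.0%, Scg2-201 at 57.3%, Scg3-202 at 65.5% and Pam-201 at 54.7% by the first quantification, as means of both animals, and the same ones led by the second on average. For Cck the second quantification gave Cck-201 a much smaller share, 35.2% and 46.7%, and placed Cck-203 first in replicate 2 at 52.6%. For Scg2 the second quantification placed Scg2-202 first in replicate 2 at 51.7%. Scg3-202 held less by the second, 45.9% and 40.4% in replicates 1 and 2. Scg3-206, a form not annotated as coding, held 27.8% and 37.9% by the second, against 12.5% and 9.78% by the first.

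Adcyap1 shows how a short form can set a level. Adcyap1-205, an annotated coding form of 318 bases, held 54.2% and 36.0% of the gene's TPM from 35.88 and 17.31 counts. Adcyap1-201, of 3392 bases, held 358.02 and 249.14 counts but 35.8% and 34.3% of the TPM. By the second quantification Adcyap1-201 led, and the gene's scaled TPM was 0.602 of that by the first. The level of Adcyap1 is uncertain by that factor, while its ratio between the animals was 0.42 by the first and 0.41 by the second on the log2 scale.

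**Figure D5:**
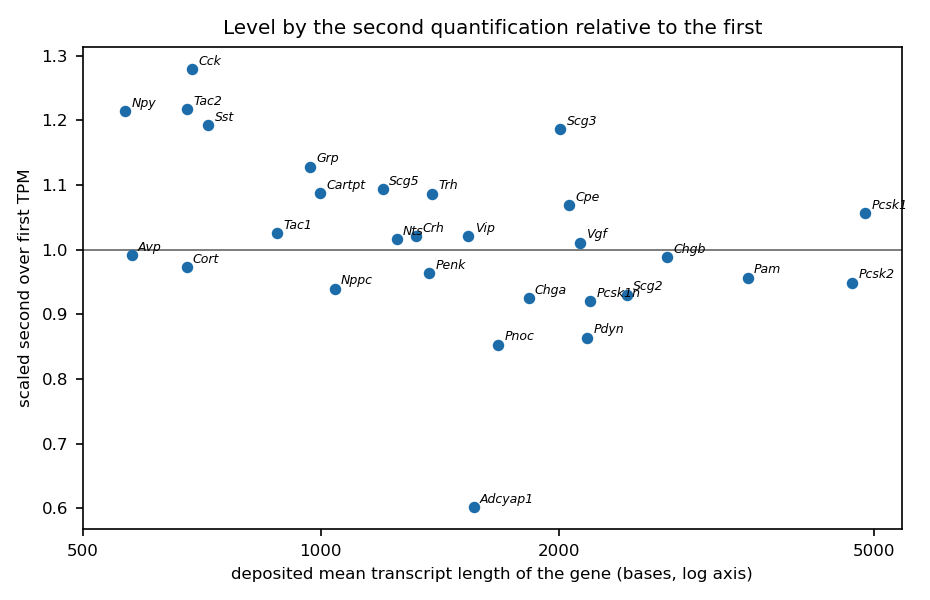
Scaled second over first TPM (mean of the animals) against the deposited mean transcript length of the gene in bases (log axis), for the 29 members at 1 TPM or more in both animals. Cck, Tac2, Npy and Sst lie between 1.19 and 1.28, the similarly short Avp and Cort at 0.992 and 0.973, and Adcyap1 at 0.602.

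The second quantification's TPM values differ in scale between the libraries, so they were scaled to the first by 0.896 and 1.26 in replicates 1 and 2 over protein-coding genes before levels were compared. After this Cck, Tac2, Npy and Sst, with short RNAs, stood 1.28, 1.22, 1.21 and 1.19 times as high as by the first in the mean of the animals. The granin Scg3 stood 1.19 times as high. For Cck the gap lay mainly in replicate 1, at 368 TPM by the scaled second against 251 by the first. In replicate 2 these values were 256 and 236 TPM. Other short precursors did not, with Tac1 at 1.03, Avp at 0.992 and Cort at 0.973 times. Pdyn and Pnoc stood at 0.864 and 0.853 times. Of the 29 members at 1 TPM, all but Adcyap1 lay between 0.853 and 1.28 in the mean of the animals, a range that does not hold for each animal alone.

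Some members overlap other genes, and whether the counting used strand is not given in the sources used here. Within the span of Pam lies the pseudogene Gm3531, on the same strand, which was listed at 36.9 and 32.3 TPM from expected counts that were not whole, so a share of the reads assigned there is uncertain. Pcsk2 overlaps the antisense gene Pcsk2os1, listed at 1.72 and 1.81 TPM, and Penk overlaps A830012C17Rik, listed at 0.22 and 0.07 TPM. These levels were 1.51% and 1.39% of the TPM of Pcsk2, and 0.125% and 0.0358% of that of Penk, in replicates 1 and 2. Pmch, at 9 and 6 counts, overlaps Parpbp with 11 and 22 counts, so its low level is uncertain. The annotated span of Agrp, at 0 counts, overlaps Ctcf (1515 and 1572 counts) and Ripor1 (2369 and 2350) on the other strand. It also overlaps Gm5914 (9 and 10 counts) on the same strand. Whether reads of Agrp were assigned to these genes was not tested.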

How the data were processed

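Left cerebral cortex total RNA of 2 animals of 1 group was analysed. Per the file headers, the authors deposited gene and transcript tables on mm10 (GENCODE M21) that hold expected counts, FPKM and TPM, and the percent of the gene's abundance held by each transcript. A second deposited transcript table, made from the reads (per the deposited notes, from 2 read files of replicate 1 and 1 of replicate 2), gives estimated counts and TPM. Which programs were run is not given in the sources used here. Reads of the CAST genome were assigned to the mm10 reference, which may affect levels by allele and was not analysed here.

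Members were matched by symbol. The members, the gene lists and the rule for naming genes were chosen with earlier results of these data known. All members are named, and those with the 3 highest and the lowest levels of each role are given per animal. Of other lists, the 3 highest genes, the lowest and those 2-fold apart are named, except that some genes this rule selects are not reported here. Activity-regulated genes, vesicle genes, proteases, other precursors and cell type markers were the lists.

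Expected counts were rounded to whole numbers, 356 ribosomal RNA genes, tRNAs and spike-ins were set aside, and libraries were scaled by TMM in edgeR 4.0.16 (R 4.3.3). Ratios used a prior count of 2, for genes whose normalised counts averaged 50 or more. The ratio calculation was tested on simulated data. Intervals are exact 95% binomial intervals, and a count of 0 allows 3 counts. Both cover counting error only. With 24688669 and 27440152 counts per library, precision is limited mainly for members under 100 counts.

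Alternatives were the second quantification, FPKM, each animal alone, size factors of DESeq2 1.42.0, scaling by spike-ins, and other count filters and prior counts. The counting-interval rule, the scaling of the second quantification and the convertase ratio were added after seeing the data. Calculations ran in Python 3.11.15 with scipy 1.17.1, numpy 2.4.6 and pandas 2.3.3. Promoter windows are from RefSeq (GRCm38.p6), which held 28 of 35 members.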

Additional observations from a re-analysis of the deposited data

How the results depend on the processing

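The count of members at 1 TPM or more in both animals, 29, was also 29 by FPKM and by the second quantification, and 29 to 30 with each animal alone. The count of members 2-fold apart, 0, was 0 under each alternative but one. With no filter on counts it was 1, namely Gal with 2 and 9 counts. The median log2 ratio of the members lay between −0.0018 and 0.074 over the alternatives. With spike-in scaling, 12 members had an interval above equal levels in place of 7, and 1 below in place of 3, while 22 of 27 members and 68.2% of all genes had a ratio above 0, in place of 14 of 27 and 50.2%. The median level of the 35 members was 17.95 TPM, 11.6 as FPKM, and 14.7 to 18.86 TPM with each animal alone. The leading transcript was the same for 33 of 33 members with either animal alone and for 27 by the second quantification. These counts include the 12 members with a single annotated transcript. The Pcsk2 to Pcsk1 ratio was 7.11 ± 2.48 over the 2 animals. The spike-in scaling differs from TMM by its own construction, since it sets the spike-ins and not the genes equal. No paired analysis was possible because both libraries belong to the same group. Members with few counts, such as Cort, Gal, Pomc, Pmch, Avp and Oxt, are limited by depth.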
